A study of Mus musculus with 42 samples.

Results

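The genes described here are 5 of the lactating mammary gland: Csn2 and Csn3, which encode the milk caseins beta and kappa, Mfge8 and Plin2, which encode proteins of the milk fat globule and of the lipid droplet it forms around, and Folr1, which encodes a folate receptor. Their probes were chosen by gene symbol in the platform annotation, which gave 1 probe for each gene, that is 5 of the 22800 probes and 5 of the 15096 genes named on the array. The RNA came from 21 mammary tumours descended from neoplasms of mice of the strain FVB/N-Tg(WapMyc)212Bri, in which the promoter of the milk protein gene Wap drives c-Myc, and every tumour shares that transgene. Selection in living mice had given 4 lines: glandular tumours, solid or comedo tumours that did or did not spread to the lung, and spindle-cell tumours. However, the labels name only the tumour on each array, not its line or the age of its host. Each tumour was therefore a group of its own, known by its number, and was measured on 2 two-colour arrays as a dye-swapped pair against a common mouse reference RNA.

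Milk genes are switched on in the alveolar epithelium late in pregnancy and in lactation, largely by prolactin acting through the transcription factor Stat5. Caseins are the main milk proteins, and kappa-casein caps the casein micelle and keeps it in suspension. Milk fat leaves the cell as lipid droplets wrapped in plasma membrane, with Plin2 on the droplet surface and the secreted glycoprotein Mfge8 on the enclosing membrane, while folate receptors carry folate into and across epithelial cells.

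Values are log2 ratios of tumour to reference, with arrays of the second dye orientation multiplied by -1. The overall sign is a choice: Myc was given a positive median, and the labels do not settle which way the ratios run. If it were turned, every highest tumour below would be the lowest, while ranges, standard deviations, correlations and p-values would stay as they are. Hba-a1, a haemoglobin gene of red blood cells, was positive in all 21 tumours under this sign, with a highest mean of 8.82 in tumour 673 and a lowest of 0.633 in tumour 662. The 2 arrays of tumour 656 had a correlation of 0.0737 over probes before turning, against values below 0 in the other 20 tumours, so they did not agree once turned, and correlations between the genes are given without it where that changes a call. Arrays held between 8600 and 21328 measured probes, and 2 arrays a tumour limit the precision. Because the arrays of a tumour are a technical pair, the p-values measure hybridisation error and not the spread between animals, and in such bulk tissue fewer cells of a type and less RNA per cell cannot be told apart.

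In GRCm38.p6 the casein genes lie near each other on chromosome 5, Csn2 at chr5:87692619-87699429 and Csn3 at chr5:87925579-87932550. Mfge8 is at chr7:79133768-79149060, Folr1 at chr7:101858331-101870788 and Plin2 at chr4:86626910-86670217. Promoter windows of 300 bases, 250 before the start of the gene and 50 after it, were in the RefSeq table used here for Csn2, Mfge8 and Plin2. The start used by that table is base 79149060 for Mfge8, the end of the gene interval given above. For Csn2 it is base 87699425, which lies 4 bases inside the interval, and for Plin2 it is base 86670059, which lies 158 bases inside it. The windows are printed below up to the start of the table, since these genes carry the comparisons that follow. Capitals mark matches to TTCNNNGAA, the core to which Stat proteins bind, and to CACGTG, the E-box that Myc binds with its partner Max. These motifs were chosen with the results known, both read the same on either strand, and they do not overlap. All windows are on the minus strand and are written 5′ to 3′.
Csn2 (chr5:87699426-87699675, 250 bases before the start): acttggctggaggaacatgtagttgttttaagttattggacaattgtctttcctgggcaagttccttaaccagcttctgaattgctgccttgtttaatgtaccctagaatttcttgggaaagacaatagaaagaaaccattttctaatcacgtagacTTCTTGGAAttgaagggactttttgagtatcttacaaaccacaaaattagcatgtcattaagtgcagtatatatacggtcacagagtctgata
Mfge8 (chr7:79149061-79149310, 250 bases before the start): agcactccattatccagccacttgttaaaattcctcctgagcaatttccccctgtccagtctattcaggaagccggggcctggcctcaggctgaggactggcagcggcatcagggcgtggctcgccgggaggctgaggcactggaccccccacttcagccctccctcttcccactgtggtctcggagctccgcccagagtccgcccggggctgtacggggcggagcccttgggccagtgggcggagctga
Plin2 (chr4:86670058-86670309, 250 bases before the start of the table and the 2 from it on): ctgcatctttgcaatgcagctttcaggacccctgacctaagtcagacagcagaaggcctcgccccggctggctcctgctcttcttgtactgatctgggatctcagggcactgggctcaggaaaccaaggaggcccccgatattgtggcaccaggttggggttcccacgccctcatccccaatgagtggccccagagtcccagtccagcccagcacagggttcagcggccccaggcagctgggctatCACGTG
The Csn2 window held 1 Stat core, from base -93 to base -85 relative to the start of the table, and had a GC content of 38.7%. The Plin2 window held 1 E-box beginning at base -4 on the same scale and so inside the gene interval, with a GC content of 60.7%, and the Mfge8 window held neither motif, with a GC content of 64.3%. Over all 32851 promoter windows of that length, 8.3% held TTCNNNGAA and 7.15% held CACGTG. Of 9 other milk protein genes with a window, 4 held the Stat core, namely Csn1s1, Csn1s2a, Glycam1 and Pigr. A match is a description of these letters and shows no binding.

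**Figure D1:**
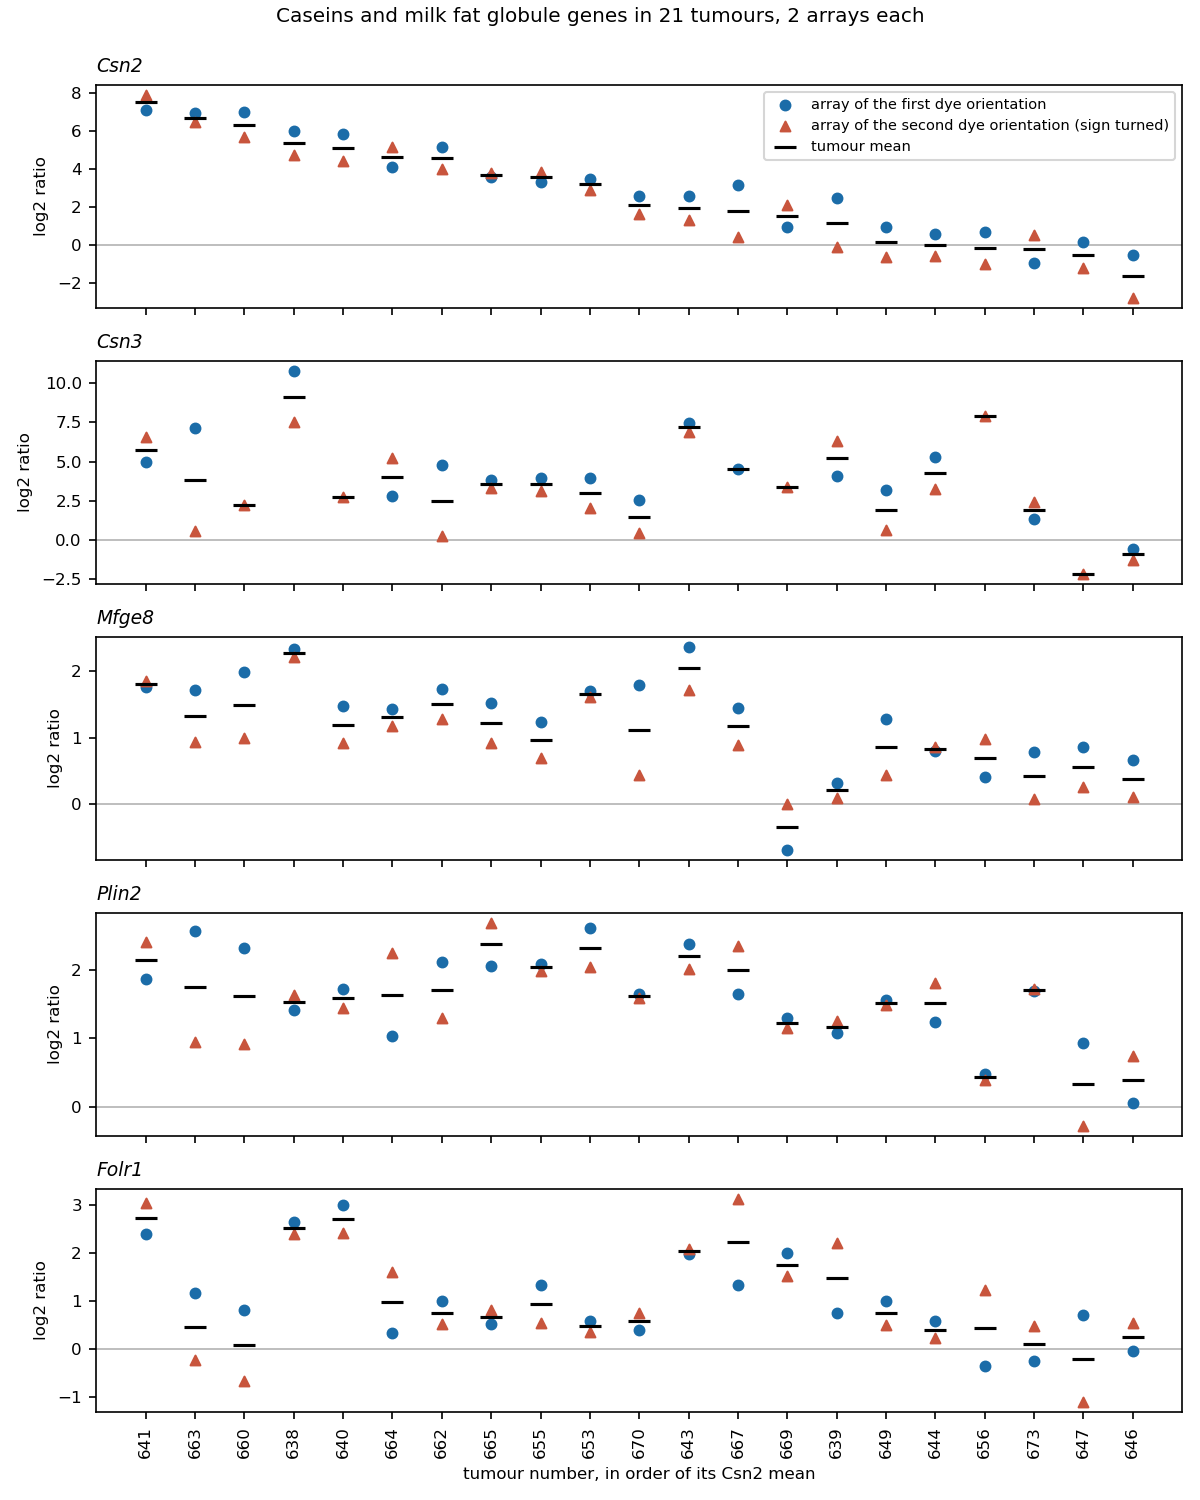
Log2 ratio (vertical axis, 1 panel for each gene with its own scale) in 21 tumours, ordered by their Csn2 mean. Circles are arrays of the first dye orientation, triangles those of the second with the sign turned, and dashes tumour means; Csn2 runs high to low by construction, Csn3 does not keep that order, and Folr1 is high in 7 tumours.

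Beta-casein (Csn2) differed between tumours with the smallest adjusted p of the 5 genes. Its tumour mean was highest in tumour 641, where the arrays gave 7.94 and 7.14, and lowest in tumour 646, where they gave -0.49 and -2.76. These arrays do not overlap, and the range of 9.16 between the means compares with a standard error of 0.698 for a mean of 2 arrays. Below tumour 641 came 663 (6.73), 660 (6.36), 638 (5.38), 640 (5.15), 664 (4.67), 662 (4.60), 665 (3.68), 655 (3.60) and 653 (3.22), then 670 at the median of 2.11. The lower tumours were 643 (1.96), 667 (1.81), 669 (1.56), 639 (1.19), 649 (0.17), 644 (0.02), 656 (-0.16), 673 (-0.22), 647 (-0.53) and 646 (-1.62). All arrays of the 10 upper tumours lay above 2.9, and in tumours 639, 649, 644, 656, 673 and 647 the arrays fell on both sides of 0. The moderated F test of limma, adjusted by Benjamini-Hochberg over 9407 probes, gave Csn2 an adjusted p of 1.37e-06. The share of its variance that lay between tumours, the intraclass correlation, was 0.863. Its standard deviation over tumours, 2.65, was larger than that of 99.8% of the tested probes, whose median was 0.816.

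Of all 210 pairs of tumours, 74 (35.2%) differed in Csn2, against 2.03% of pairs over all probes tested. Tumour 641 took part in 14 of them. The smallest difference that passed was 3.73 and the largest that did not was 3.66, so differences under about that size are within the error. None of the 20 neighbours in the order differed. The arrays of a tumour lay a median of 1.29 apart, most in tumour 667 (3.16 and 0.46) and least in tumour 665, and the array of the first orientation was the higher in 15 of 21 tumours.

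Kappa-casein (Csn3) also differed between tumours, by a range of 11.3 and with a larger error. Its arrays gave 10.8 and 7.50 in tumour 638, the highest, and the lowest value, -2.14, came from the lone measured array of tumour 647. The median tumour was at 3.55, 19 of 21 tumours were above 0, and the standard error was 1.26 for 2 arrays and 1.79 for 1 array. On 6 tumours (640, 647, 656, 660, 667 and 669) only 1 array had a value, and the other was left out of the fit. High tumours after 638 were 656 (7.91, 1 array), 643 (7.18), 641 (5.76), 639 (5.21), 667 (4.55), 644 (4.27), 664 (4.02) and 663 (3.85). Tumours 655 (3.55), 665 (3.55), 669 (3.40), 653 (3.00), 640 (2.73), 662 (2.51) and 660 (2.24) followed closely together. The low end held 649 (1.93), 673 (1.89), 670 (1.48), 646 (-0.91) and 647 (-2.14), and only 646 and 647 were below 0. The adjusted p of the F test was 0.0336 (limma) and the intraclass correlation 0.526. Of 210 pairs of tumours 9 (4.29%) differed, 5 of them with tumour 638, and no neighbours in the order differed. The arrays of tumour 663, at 7.15 and 0.557, lay 6.59 apart, the widest gap of any of these genes. The call rests on few arrays: leaving out any 1 of 11 arrays (both arrays of 646, 673 and 643 and 1 each of 638, 641, 647, 655 and 670) gave adjusted p values between 0.0502 and 0.0823.

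The tumour means of the caseins ran in different orders, but the order of Csn3 was poorly resolved. Of 210 pairs of tumours 9 differed in Csn3, and the smallest difference that passed was 7.21, so most of its ranks are within the error. Tumour 643 ranked 3 for Csn3 at 7.18 and 12 for Csn2 at 1.96, whereas tumour 660 ranked 3 for Csn2 at 6.36 and 16 for Csn3 at 2.24. Tumour 656, next to the top for Csn3 on 1 array, was at -0.16 for Csn2. Tumours 646 and 647 were lowest for Csn3 and for Csn2. Over 21 tumours the correlation of the pair was 0.332 (Spearman 0.31), and it did not pass the permutation test (two-sided p = 0.143, adjusted over 13 relations 0.232). It was 0.294 without tumours 641 and 663, which lie farthest from the Csn2 median, and 0.619 among the 8 tumours wholly in slide run 3 (p = 0.116, exact permutation test). Leaving tumour 656 out, the correlation was 0.475 (permutation test, adjusted p = 0.0721). Slide runs were read from the running numbers of the arrays, and the labels do not call them batches.

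The milk fat globule gene Mfge8 covered a much smaller range, 2.62, and had a standard error of 0.341. Its arrays gave 2.34 and 2.22 in tumour 638, the highest, and -0.688 and 0.005 in tumour 669, the lowest, and these do not overlap. Next were 643 (2.04), 641 (1.81), 653 (1.66), 662 (1.51), 660 (1.49), 663 (1.33), 664 (1.31), 665 (1.22), 640 (1.19) and, at the median, 667 (1.17). Below it came 670 (1.12), 655 (0.97), 649 (0.86), 644 (0.83), 656 (0.70), 647 (0.56), 673 (0.43), 646 (0.38), 639 (0.21) and 669 (-0.34). Tumour 669 was thus the lone tumour with a mean below 0 on the uncentred scale. With arrays centred on the probes measured on all arrays, both arrays of tumour 639 were below 0 as well (-0.192 and -0.0835). Mfge8 differed between tumours (limma, adjusted p = 0.0194), with an intraclass correlation of 0.609. Its standard deviation over tumours, 0.632, exceeded that of 29.8% of tested probes, and its arrays varied within a tumour with a standard deviation of 0.44, against a median of 0.913 over all probes. Of 210 pairs 10 (4.76%) differed, 6 of them with tumour 669, and no neighbours differed. Without the second array of tumour 669 the adjusted p was 0.0558. The array of the first orientation was higher in 17 of 21 tumours, and with dye orientation as a covariate the adjusted p was 0.00105.

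Plin2, the lipid droplet coat, was positive in all 21 tumours and did not pass the F test (adjusted p = 0.0906, unadjusted 0.0226, limma). Its arrays gave 2.69 and 2.06 in tumour 665, the highest, and 0.931 and -0.28 in tumour 647, the lowest. After 665 came 653 (2.33), 643 (2.20), 641 (2.14), 655 (2.04), 667 (2.00), 663 (1.75), 662 and 673 (both 1.71), 664 (1.64) and 670, the median at 1.62. Tumours 660 (1.62), 640 (1.58), 638 (1.53), 649 (1.52), 644 (1.52), 669 (1.22) and 639 (1.16) continued that run without a break. A gap then separated tumours 656 (0.43), 646 (0.40) and 647 (0.33), which a mixture model (mclust) placed in a component of their own, apart from 18 tumours between 1.16 and 2.37. That gap depended on the scale. With arrays centred on the probes measured on all arrays, tumour 669 (0.799 and 0.6955) lay close above tumour 656 (0.7885 and 0.5117). The correlations of Plin2 below kept these 18 tumours on every scale. The range was 2.05 with a standard error of 0.382, and 1 of 210 pairs (0.476%), tumour 665 against 647, differed. The call depended on the scale, with adjusted p values of 0.00317 after centring each array on the probes measured on all arrays, 0.0336 among probes measured on every array, and 0.046 with dye orientation as a covariate. Of all probes 25.1%, 40.5% and 43.9% passed under these settings, in that order. It also depended on tumours 660 and 663, whose arrays lay up to 1.63 apart. Without any 1 of their 4 arrays the adjusted p was between 0.0364 and 0.0451. Over the probes measured on all arrays, the lower array had a median of -1.143 in tumour 660 and -1.037 in tumour 663. The other array had 0.097 and -0.0545. With arrays so centred, Plin2 gave 2.222 and 2.058 in tumour 660 and 2.624 and 1.975 in tumour 663.

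On the uncentred scale the folate receptor Folr1 fell into 2 components. The upper held 7 tumours, namely 641 (2.71), 640 (2.71), 638 (2.51), 667 (2.22), 643 (2.03), 669 (1.75) and 639 (1.47). The lower 14 were 664 (0.97), 655 (0.94), 662 (0.75), 649 (0.74), 665 (0.66), 670 (0.58), 653 (0.47), 663 (0.46), 656 (0.44), 644 (0.40), 646 (0.25), 673 (0.11), 660 (0.07) and 647 (-0.20). The arrays gave 2.40 and 3.03 in tumour 641, the highest, and 0.70 and -1.10 in tumour 647, the lowest. Single arrays of the components overlapped, since tumour 639 had an array at 0.745 and tumour 664 had an array at 1.61. With each array centred on the probes measured on all arrays, tumour 664 (2.035 and 0.783) lay above tumour 639 (2.029 and 0.231). The make-up of the components thus depended on the scale. Folr1 differed between tumours (limma, adjusted p = 0.0188; range 2.91, standard error 0.493, intraclass correlation 0.554). Of 210 pairs 5 (2.38%, near the 2.03% over all probes) differed, 3 of them with tumour 647, and none of the neighbours in the order did. The call was lost when arrays were centred on their own median (adjusted p = 0.0553) and after quantile normalisation (0.116), when 18.2% and 13.6% of probes passed, and was kept with each array left out in turn (0.00984 to 0.0466).

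**Figure D2:**
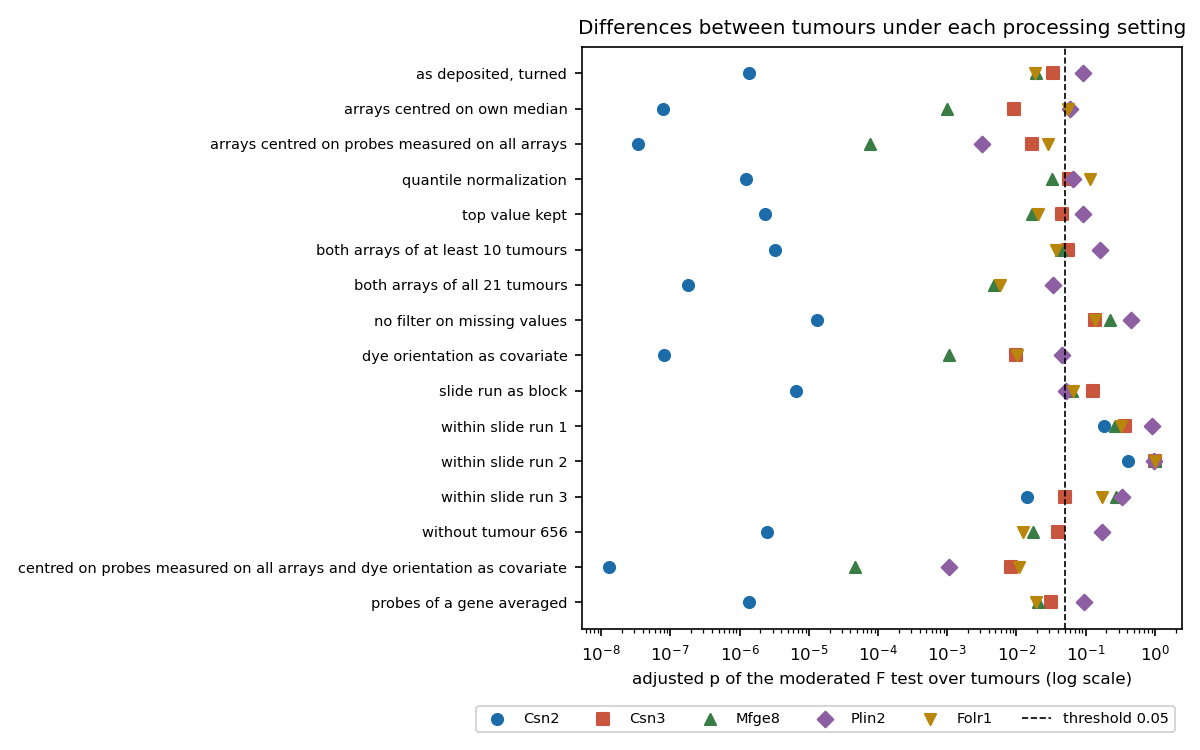
Adjusted p of limma's F test over tumours (horizontal axis, log scale) for each gene under each processing setting (vertical axis), with the threshold of 0.05 dashed. Csn2 lies left of the threshold in all settings except within slide runs 1 and 2, and the other 4 genes lie on both sides of it.

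In all, 4 of the 5 genes differed between tumours, where 19.2% of all tested probes did. These are few genes and were chosen with earlier results known, so that share is a description. Slide run overlapped with tumour, as 17 tumours had both arrays in the same run. With slide run as a block 1 gene passed, Csn2 (adjusted p = 6.51e-06), and Mfge8 (0.0644), Folr1 (0.0661), Plin2 (0.0522) and Csn3 (0.128) did not, when 7.55% of probes passed. Within slide run 3, with 8 whole tumours, Csn2 passed (0.0145) and Csn3 was at 0.0503, when 2.21% of probes passed. Within the other runs, of 4 and 5 whole tumours, no probe passed limma's test after adjustment. At an unadjusted p of at most 0.05 there were 1154 of 9354 and 584 of 9406 probes, including 4 and 1 of these 5 genes. Whether slide run contributes to the differences was not tested beyond these values.

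Csn2 and Mfge8 were correlated over the 21 tumours. Their correlation was 0.662 (Spearman 0.781), with a two-sided permutation p of 0.00104, or 0.0135 after adjustment over the 13 relations between pairs of these genes. It was the sole relation of the 13 to pass by Pearson's correlation, and its adjusted p by Spearman's was 0.00104. Without tumours 641 and 663 it was 0.645. Within slide run 3 it was 0.556 over 8 tumours (p = 0.165, exact permutation test), and with slide run means removed it was 0.606 (adjusted p = 0.0666), so it did not pass within runs. Among the 16 tumours with low mesenchymal markers, described below, it was 0.556 (adjusted p = 0.141), a setting chosen after seeing the data.

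Mfge8 and Plin2 had a correlation of 0.56 in the 18 tumours of the upper Plin2 component, which missed the threshold (permutation p = 0.0146, adjusted 0.0633; Spearman 0.546, adjusted p = 0.0927). It was 0.646 without tumours 669 and 638 and 0.909 in the 7 tumours of slide run 3 (p = 0.00397, exact permutation test). It passed in 7 of 9 alternatives: with arrays centred on their own median (0.796, adjusted p = 6.5e-04) or on the probes measured on all arrays (0.738, 0.00286), with quantile normalisation (0.776, 0.00273), with slide run means removed (0.70, 0.0494), within slide run 3 (adjusted p = 0.0278), without the 2 farthest tumours (0.035) and without tumour 656 (0.038). That tumour is not among the 18, and its removal changed the other relations of the adjustment. In the larger mesenchymal component the correlation was 0.55 (adjusted p = 0.141). Csn2 and Folr1 had a correlation of 0.879 in the 7 tumours with high Folr1 (exact permutation p = 0.0111, adjusted 0.0633; Spearman 0.929, adjusted p = 0.0438) and 0.364 in the other 14 (adjusted p = 0.291). In those 14 it was 0.744 with arrays centred on their own median (adjusted p = 0.00694) and 0.677 with arrays centred on the probes measured on all arrays (adjusted p = 0.0259). Csn3 had correlations of 0.452 with Mfge8 (adjusted p = 0.124), 0.0915 with Plin2 and 0.111 and 0.486 with Folr1 in its upper and lower components. Leaving tumour 656 out, its correlation was 0.551 with Mfge8 and 0.656 with Folr1 in the lower component, and both then passed (adjusted p = 0.038 each), as did Csn2 and Folr1 in the upper one (0.879, adjusted p = 0.038). Plin2 and Folr1 had a correlation of -0.0012. Mfge8 and Folr1 had 0.688 in the upper and 0.418 in the lower component (permutation test, adjusted p = 0.193 and 0.232). In the lower one the relation passed with arrays centred on their own median (0.755, 0.00694) or on the probes measured on all arrays (0.679, 0.0259) and with quantile normalisation (0.776, 0.00503), and not otherwise. Csn2 and Plin2 had 0.249 (adjusted p = 0.41), and passed only with arrays centred on their own median (0.642, 0.0103).

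**Figure D3:**
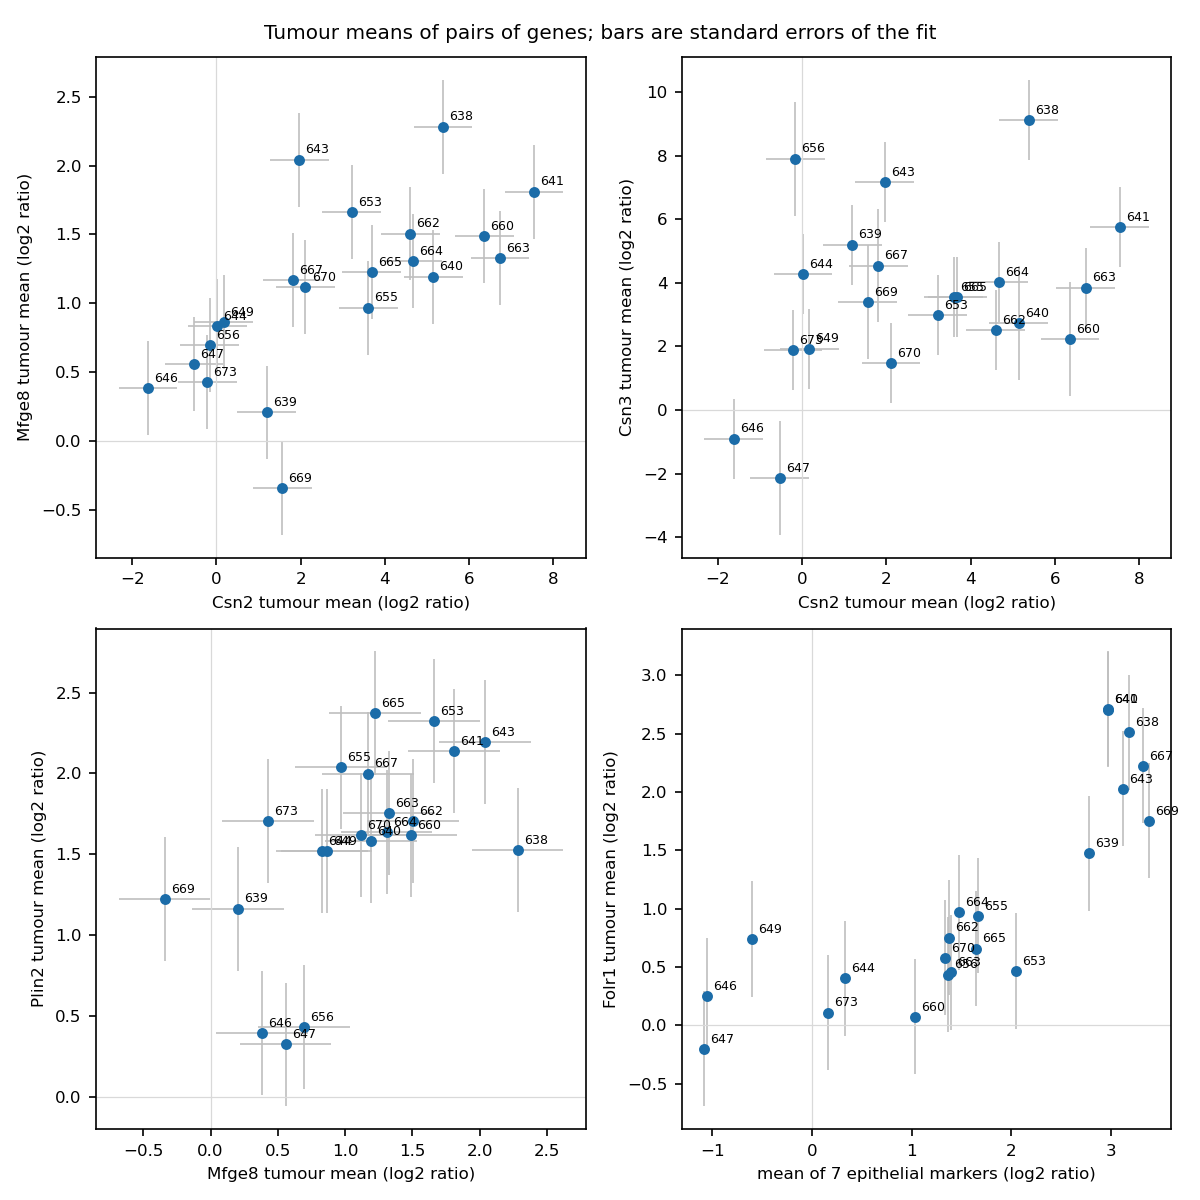
Tumour means (log2 ratio) of 3 pairs of genes and of Folr1 against the mean of 7 epithelial markers; points are tumours with their numbers and bars are standard errors of the fit. Csn2 and Mfge8 run together (correlation 0.662), Csn2 and Csn3 less so (0.332), and the 7 tumours high in Folr1 are those with the highest epithelial means on this uncentred scale.

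The low end of the caseins was shared with tumours rich in mesenchymal markers. The mean of 6 mesenchymal markers was high in 5 tumours (644, 646, 647, 649 and 673), between 1.55 and 1.02, and low in the other 16, between -1.91 and -3.80. All 7 mesenchymal markers that could be tested differed between tumours, Vim, the mesenchymal filament, having its highest mean of 1.22 in tumour 649 and its lowest of -4.84 in tumour 656. The same 5 tumours had the lowest means of the 7 epithelial markers, at most 0.329, and the lowest values of Myc, at most 0.02. They also had the highest means of the 6 macrophage markers, between 2.80 and 1.67, against at most 1.17 in the other 16. Single markers did not all follow these means. Krt8 was highest in tumour 649 (3.24), of the 5, and Krt8 (0.742) and Krt18 (-2.98) were lowest in tumour 656, of the 16. Epcam, Cldn3, Cldn7, Spint2 and Elf3 were lowest in tumours of the 5. The macrophage marker C1qa was highest in tumour 641 (4.17), while the others of its mean were highest in tumour 649. Csn2 was between 0.17 and -1.62 in these 5 tumours, with a median of -0.22, and between 7.54 and -0.16 in the other 16, with a median of 3.64. Only tumour 656 of the 16 fell among the 5. Csn3 overlapped widely, with a highest value, median and lowest value of 4.27, 1.89 and -2.14 in the 5 and of 9.14, 3.70 and 1.48 in the 16. Medians of the 5 against the 16 were 0.56 against 1.27 for Mfge8, 1.52 against 1.67 for Plin2 and 0.25 against 0.96 for Folr1, with overlap in each. The groups were read from the marker values, so no test was made between them, and the part of cell make-up in the casein differences was not tested.

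The 7 tumours of the upper Folr1 component were also the 7 with the highest epithelial means, between 3.39 and 2.78, against 2.05 at most in the other 14. Both were read on the uncentred scale, and the arrays had medians between -1.143 and 0.7785 over the probes measured on all arrays. With arrays centred, tumours 664 and 655 lay above tumour 639 for Folr1. The mean of tumour 655 (arrays at 1.539 and 1.03) also lay just above that of tumour 669 (1.504 and 1.049). The 7 tumours highest in Folr1 were then not the same. The part of array level in this match was not tested. Epcam, an epithelial adhesion molecule, was highest at 3.69 in tumour 667 and lowest at -3.13 in tumour 646. Within the epithelial components of at least 6 tumours, the relation of Folr1 to the epithelial mean did not pass (correlations 0.392 in 9 tumours and 0.00305 in 7, exact permutation p = 0.291 and 0.995). Over 37 relations of the 5 genes to marker means, Myc, array level and number of measured probes, none passed after adjustment. The smallest p belonged to Csn2 and the mean of 6 macrophage markers, with a correlation of -0.636 (permutation p = 0.00223, adjusted 0.0825; Spearman -0.588, adjusted p = 0.112), or -0.544 without the 2 tumours farthest from the median. In the 16 tumours of the upper Myc component, Myc had correlations of -0.60 with Csn2 (permutation p = 0.013, adjusted 0.24) and 0.529 with Csn3 (p = 0.0343, adjusted 0.423), or -0.464 and 0.587 without the 2 farthest tumours.

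Other genes of milk fat and folate were read from lists chosen with earlier results known. Fitted gene by gene, with probes averaged, 18.9% of 7629 genes differed between tumours, 25.4% did after centring on the probes that every array measured, and 45.1% with the dye orientation as a covariate. Of the fat globule and droplet genes 2 of 7 did, and 1 and 3 under these settings. Muc1, a mucin of the globule membrane, was highest at 1.22 in tumour 641 and lowest at -0.67 in tumour 647 (adjusted p = 0.0049, but 0.116 with arrays centred). Abhd5, which activates the lipase of the droplet, was highest at 3.50 in tumour 640 and lowest at -0.17 in tumour 656 (adjusted p = 0.0412). Btn1a1 (adjusted p = 0.387) and Xdh (0.186), partners in the coat of the secreted globule, did not pass. Of the lipid synthesis genes 7 of 14 differed. Scd1, the fatty acid desaturase, was highest at 2.53 in tumour 665, which also had the highest Plin2, and lowest at -2.20 in tumour 641, which had the highest Csn2 (adjusted p = 7.76e-06). Gpam, which starts glycerolipid assembly, had its highest mean of 1.96 in tumour 640 and its lowest of -1.18 in tumour 647 (adjusted p = 0.00287). Lpin1, a phosphatidate phosphatase, had 2.15 in tumour 643 and -3.56 in tumour 649 (adjusted p = 0.00756).

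Of the prolactin and Stat5 genes 3 of 10 differed, and 6 with arrays centred and 7 with dye orientation as a covariate. The helix-loop-helix factor Id2 ranged from a highest mean of 1.63 in tumour 667 down to -1.40 in tumour 673 (adjusted p = 0.00113). The feedback inhibitor Socs2, measured in 19 tumours, had 4.43 in tumour 656, whose arrays did not agree over probes, and -1.21 in tumour 662 (0.00819). Socs3, of the same family, had 0.70 in tumour 649 and -2.68 in tumour 663 (0.0207). Stat5a itself did not pass (0.11), but did with dye orientation as a covariate (0.0339). Of the folate genes 1 of 11 differed beside Folr1, and 5 with arrays centred and 6 with dye orientation as a covariate. Shmt1, the cytosolic serine hydroxymethyltransferase, was highest at 3.77 in tumour 667 and lowest at -1.68 in tumour 647 (adjusted p = 5.34e-05). Folr2, a folate receptor of macrophages, did not pass (0.613).

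The remaining milk protein genes had too few measured arrays for the test. A first probe of Wap, the whey acidic protein whose promoter drives the transgene, had values on 33 arrays. It was highest in tumour 667 (8.05, 1 array), 669 and 638, where the arrays gave 7.76 and 6.49, and lowest in tumour 647 (-2.37, 1 array). Tumours 663 and 660, next below 641 for Csn2, had Wap values of 0.784 and 2.11 on 1 array each. With no filter on missing values the adjusted p of this probe was 0.00313 (limma), and 2.65% of probes passed. In that setting the other milk protein probes named here did not pass: the second Wap probe (0.151), Csn1s1 (0.212), Lalba (0.325), Csn1s2a (0.454), Glycam1 (0.825) and Csn1s2b (0.97). The second Wap probe had values on 19 arrays and was highest in tumour 643 (10.6 and 7.43), but it disagreed with the first in tumour 663 (-2.11) and tumour 660 (-1.25). Csn1s1, an alpha casein, was highest in tumour 641, with arrays at 6.32 and 5.69, and lowest in tumours 639 and 646 (-1.32, 1 array each) among 20 tumours. Csn1s2a, a further alpha casein, gave 8.72 and 7.07 in tumour 641 and at most 3.64 on any other array. Lalba, the alpha-lactalbumin of lactose synthesis, gave 8.96 on 1 array of tumour 640 and 7.29 and 6.46 in tumour 641, and was measured in 12 tumours. Tumour 641 thus held high values of Csn2, Csn1s1, Csn1s2a and Lalba. On its measured array it was at the median for Csn1s2b, a casein (1.35), and for Glycam1, a secreted mucin-like protein of milk (0.951).

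**Figure D4:**
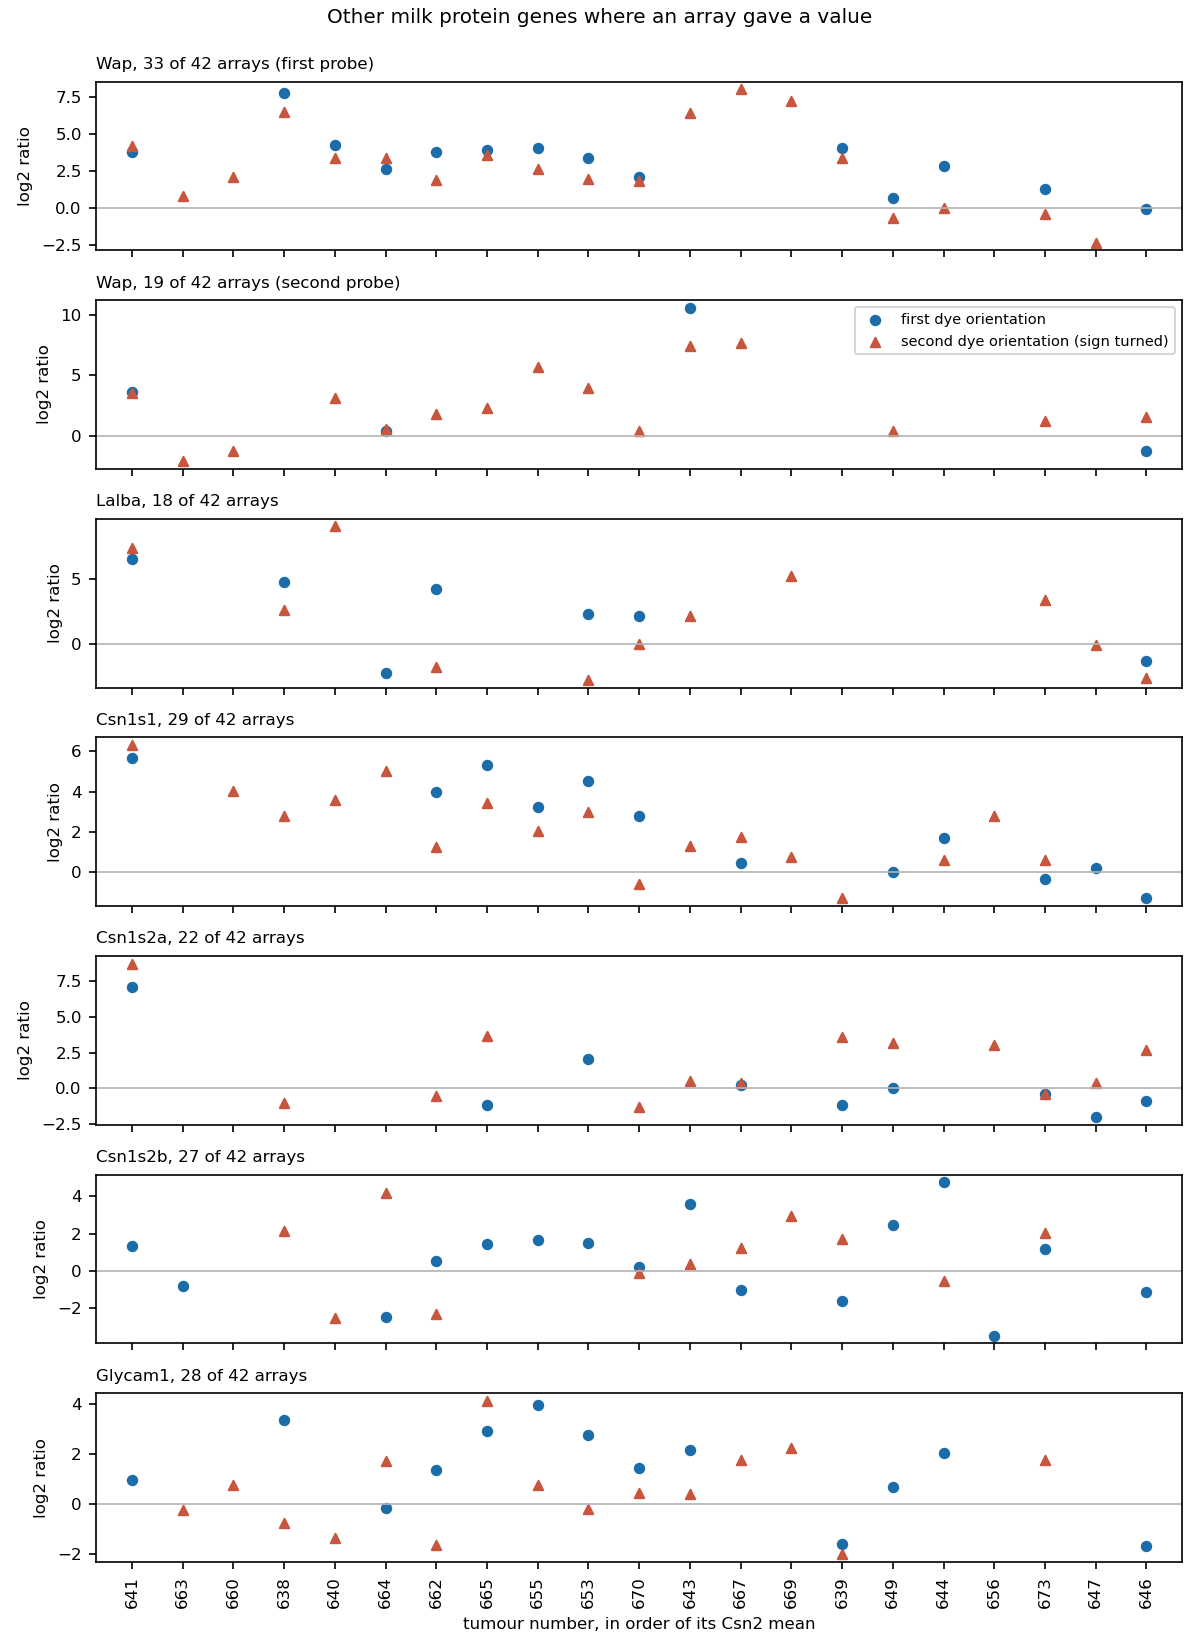
Log2 ratio (vertical axis, 1 panel for each probe) of other milk protein genes in tumours ordered by their Csn2 mean; each point is 1 array, and tumours without a point had no value. Csn1s1 is highest at the left, in tumour 641, while the first Wap probe is highest in tumours 667, 638 and 669.

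The genes whose tumour means were most like each of the 5 were found among 6811 probes measured in all tumours. Correlations here are over the same 21 tumours and arrays and are descriptions only. For Csn2 they were Me1, a malic enzyme that supplies NADPH (0.83), Mif-ps1 (0.828), the phosphatase gene Dusp16 (0.816) and the cytokine gene Mif (0.803). Mif-ps1 is a near copy of Mif, and their probes cannot be taken as separate. For Csn3 they were Ly96, a partner of a Toll-like receptor (0.808), the homeobox gene Irx2 (0.801), the sulfurtransferase gene Tst (0.782) and the tight junction gene Cldn3 (0.775). For Mfge8 they were the splicing factor gene Rbm25 (0.697), Mpzl1 (0.688), Csn2 (0.662) and the glutathione transferase gene Mgst1 (0.654). For Plin2 they were Fam210b (0.751), Fbxw4 (0.73), Ogfrl1 (0.724) and the ribosomal protein gene Rps12 (0.715, but 0.439 with arrays centred). For Folr1 they were Chchd1 (0.94), Mrpl42 (0.918, but 0.637 with arrays centred), Atp5pb (0.917) and the malate dehydrogenase gene Mdh1 (0.916), over tumours that fall into 2 components of Folr1 on the uncentred scale.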

How the data were processed

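Per the labels, total RNA was labelled with Cy3 or Cy5 and hybridised in dye-swapped pairs to arrays of 22800 long oligonucleotide probes. The deposited values are log2 ratios of the dyes, a scale read from the values; the sources used here do not give background correction, normalization or the dye of each array. Blank cells made up 24.1%, and 15512 values at a repeated top of 16.61 were treated as missing. Orientation of each array was the sign of its loading on the first eigenvector of the within-tumour array differences. The scale was not centred. limma 3.58.1 in R 4.3.3 fitted tumour as a factor to 9407 probes with both arrays of at least 15 tumours; its moderated F test was adjusted by Benjamini-Hochberg at 0.05. The fit was tested on simulated data. Probes were named through the platform annotation (16874 probes with 1 symbol, 134 with several, 5792 with none; 16196 matched a current gene). Correlations used 100000 permutations, or exact enumeration under 10 tumours, within mclust 6.1.1 components of at least 6 tumours. Taking components of either gene was decided after seeing the data. Genes named are the 5 members, the 3 of each list with the smallest p among those called, Myc, Vim, Epcam, Hba-a1 and the 4 most alike of each member; other named list genes were chosen after their values were seen. Members and lists were chosen with earlier results of these data known. Of the marker lists, 5 of 9 epithelial, 7 of 7 mesenchymal, 5 of 6 macrophage, 1 of 4 adipocyte and 1 of 2 myoepithelial genes differed; 0 of 8 milk protein genes with a probe could be tested.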

Additional observations from a re-analysis of the deposited data

How the results depend on the processing

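The difference of Csn2 between tumours passed in 13 of 15 alternatives, with adjusted p values between 1.31e-08 and 0.409; Mfge8 passed in 10, Folr1 in 8 and Csn3 in 7 of 14, and Plin2, which missed the threshold, passed in 4. Of the 5 genes, 2 passed with quantile normalisation, 1 with no filter on missing values, 1 with slide run as a block, 0 within the first run, 0 within the second and 1 within the third. Probes that differed, 1804, numbered 598 with no filter, 4132 with dye orientation as a covariate, 710 with slide run as a block, 0, 0 and 208 within the 3 runs, and 3798 with centring and dye orientation together, an alternative chosen after seeing the data; at an unadjusted p of 0.05 limma gave 1154 and 584 probes in the runs with 0. Genes of the lists that differed, 32 of 70 tested, numbered 49 with dye orientation as a covariate. Of all genes 18.9% and 45.1% differed in these settings, in that order. Leaving out 1 array at a time gave 1448 to 2867 probes (the highest without the second array of tumour 660), 3 to 5 of the 5 genes, and adjusted p values of 8.46e-07 to 7.52e-06 for Csn2, 0.00487 to 0.0823 for Csn3, 0.00902 to 0.0558 for Mfge8, 0.0364 to 0.174 for Plin2 and 0.00984 to 0.0466 for Folr1. Of 13 correlations, 1 passed as given, 6 with arrays centred on their own median, 4 centred on shared probes, 4 with quantile normalisation, 5 without tumour 656, 2 without the 2 farthest tumours and 0 in the larger mesenchymal component (3 of 13 there at an unadjusted permutation p of 0.05). The sign turned for Csn3 and Plin2 with quantile normalisation (-0.09), for Plin2 and Folr1 with slide run means removed (0.373), within slide run 3 (0.539) and without the 2 farthest tumours (0.206), and in the larger mesenchymal component for Csn2 and Csn3 (-0.167), Csn2 and Folr1 (-0.135) and Mfge8 and Folr1 (-0.204). The cause was not tested. No paired analysis was possible because the labels give the arrays no replicate numbers shared between tumours. Values within 0.00051 (log2) of a ratio of whole numbers up to 10, as dim spots give, made up at most 4.76% of values for each of the 5 genes and 19.9% over all probes.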
